A study of Mus musculus with 17 samples.

Results

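Acute myeloid leukaemia (AML) libraries from mouse bone marrow were divided here into sets chosen by the measured RNA level of a stretch of chromosome 2. For each library the CPM of each gene lying between 60 and 160 Mb of chromosome 2 (GRCm38) was divided by its mean in the Normal libraries, and the median log2 ratio was taken over the 368 genes there with a Normal mean of at least 8 CPM. CPM, counts per 1e6 counts, is used after trimmed-mean (TMM) scaling. Of the 5 AML libraries, 3 had a median below -0.6 and are called chr2-low AML, and the other 2 did not. The whole series holds 17 libraries. All 5 AML libraries carried the URE deletion on 1 allele (URE het), the URE being the upstream regulatory element of Spi1, together with loss of a single Tet2 allele (Tet2 het) or of both alleles (Tet2 KO), and they are named here by the Tet2 genotype and the replicate number: Tet2 het AML 1 and 2, and Tet2 KO AML 1, 2 and 3. The chr2-low set held Tet2 het AML 1, Tet2 KO AML 2 and Tet2 KO AML 3, and the other set Tet2 KO AML 1 and Tet2 het AML 2; values below are given in these orders. The 12 libraries labelled Normal were 3 each of URE het, Tet2 het, Tet2 KO and wild type (WT). Polyadenylated RNA came from cKit+ progenitors of the bone marrow that were negative for the Lymph and Ery markers of the sort, from mice whose controls the design text calls age-matched. Age, sex and the promoter or Cre behind either allele are not given in the labels. Nor do they say whether different libraries come from different mice. The p-values therefore measure only the spread between these libraries, which may be technical. That spread was estimated jointly over all 17 libraries, the 12 Normal ones included, rather than within the 5 AML libraries alone.

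Spi1 encodes PU.1, a transcription factor that myeloid and lymphoid progenitors need, and the URE is its main distal enhancer. Tet2 is an enzyme that oxidises methylated cytosine and is often mutated in clonal haematopoiesis and AML. In mouse AML induced by radiation, loss of part of a copy of chromosome 2 that includes Spi1 is a known lesion. Only RNA was measured here, so the copy number of chromosome 2 was not observed. Blood stem cells and many leukaemias express Hoxa genes with their cofactor Meis1, which maintain self-renewal, whereas Cebpa and Runx1 drive myeloid maturation.

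Promoters of 3 genes that carry the comparison below are shown first: Igll1, a gene that rose in chr2-low AML, and Hoxa9 and Tal1, stem cell regulators that fell. Sequences are from RefSeq (GRCm38.p6), 250 bases before to 50 after the gene start, 5′ to 3′. RefSeq windows were available for 74 of the 92 genes that the naming rule gave. Capitals mark GAGGAA, a core of PU.1 binding sequences, or its reverse complement TTCCTC, searched on both strands; the 2 forms do not overlap each other.
Igll1 (chr16:16863936-16864235, minus strand): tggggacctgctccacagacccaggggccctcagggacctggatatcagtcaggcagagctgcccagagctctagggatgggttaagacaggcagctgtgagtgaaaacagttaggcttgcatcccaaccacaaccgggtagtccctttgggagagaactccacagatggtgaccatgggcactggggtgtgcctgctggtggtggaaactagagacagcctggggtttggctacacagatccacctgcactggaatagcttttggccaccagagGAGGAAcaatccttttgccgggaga
Hoxa9 (chr6:52227321-52227620, minus strand): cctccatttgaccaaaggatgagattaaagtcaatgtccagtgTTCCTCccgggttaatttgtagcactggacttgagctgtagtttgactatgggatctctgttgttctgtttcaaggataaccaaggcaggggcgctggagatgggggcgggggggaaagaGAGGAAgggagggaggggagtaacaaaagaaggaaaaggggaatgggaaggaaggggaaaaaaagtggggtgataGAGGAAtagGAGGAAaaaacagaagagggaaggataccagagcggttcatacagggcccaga
Tal1 (chr4:115056176-115056475, plus strand): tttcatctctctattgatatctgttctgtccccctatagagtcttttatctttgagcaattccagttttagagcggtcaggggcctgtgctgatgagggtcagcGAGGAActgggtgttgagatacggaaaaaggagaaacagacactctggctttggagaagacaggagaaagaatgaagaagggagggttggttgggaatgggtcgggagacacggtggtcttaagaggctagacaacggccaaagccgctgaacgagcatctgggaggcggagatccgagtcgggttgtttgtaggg
The Hoxa9 window held 4 matches and the Igll1 and Tal1 windows 1 each. RefSeq held 2 windows for Tal1, and the first listed window of each gene was used. Of 27025 genes with a window, 7652 (28.3%) held at least 1 match, so a match is common and describes the letters only.

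Chromosome 2 values are a description, since they chose the libraries. The interval medians were 51.5%, 51.5% and 50.03% of the Normal mean in chr2-low AML, and 103.5% and 87.9% in the other AML libraries. On the log2 scale the library nearest to -0.6 on the low side was Tet2 het AML 1 at -0.956, and the nearest on the other side was Tet2 het AML 2 at -0.187. The Normal libraries ran from -0.121 to 0.0476. Divided by each library's own genes outside the interval, the levels were 52.1%, 52.7% and 52.6% in chr2-low AML, 100.2% and 98.8% in the other AML libraries and 97.0% to 104.8% in Normal libraries. The low level was shared by most genes of the interval: 72.3%, 72.6% and 76.6% of them were below the ratio of -0.6 in chr2-low AML, against 13% and 24.7% in the other AML libraries and 2.99% to 10.3% in Normal libraries.

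Every 10 Mb step from 60 to 160 Mb had a median between 42.1% and 70.2% of Normal in the 3 libraries. At 160 to 170 Mb the libraries parted, at 99.2%, 86.6% and 65.9%, and at 50 to 60 Mb they were at 100%, 60.7% and 80.6% over 14 genes, where the other AML libraries were at 90.6% and 73.5%. Outside the interval every chromosome median of the chr2-low AML libraries lay between -0.114 and 0.117 on the log2 scale. Tet2 het AML 2 had lower medians on most chromosomes, down to -0.391 on X.

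**Figure D1:**
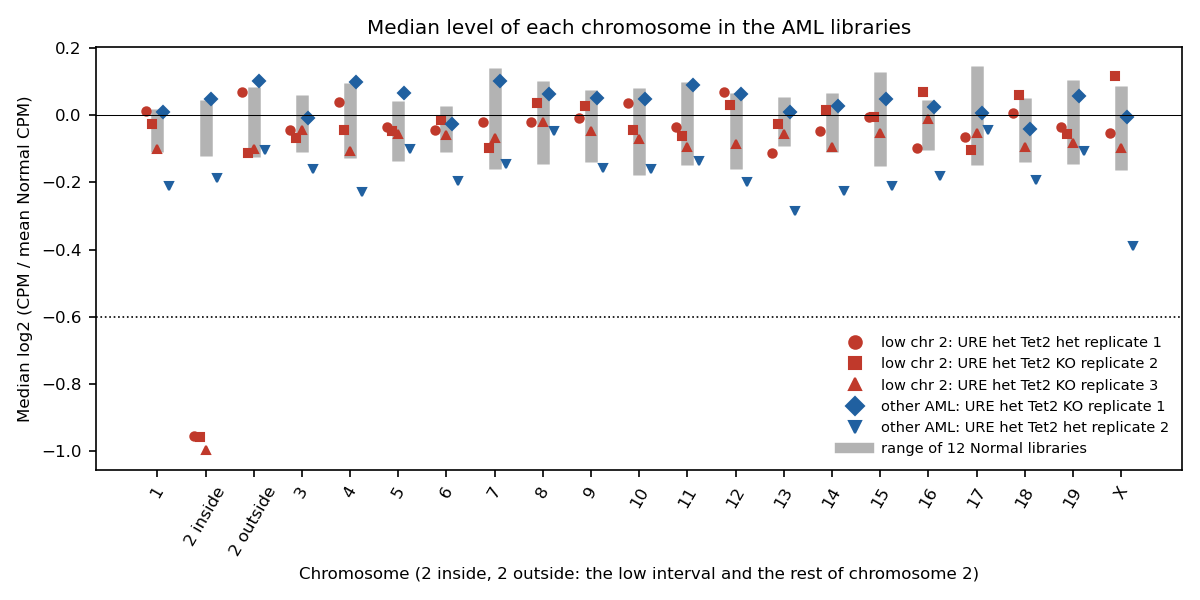
Median log2 ratio of CPM to the Normal mean (vertical axis) for each chromosome, with chromosome 2 split into the low interval and its remainder; red symbols are the 3 chr2-low AML libraries, blue symbols the other 2 AML libraries and grey bars the range of 12 Normal libraries. Red symbols fall below the dotted line at -0.6 in the interval alone, at -0.956, -0.958 and -0.999.

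Spi1 lies inside the interval (ENSMUSG00000002111.8, chromosome 2, 91082390 to 91115756). It was at 21.6, 7.83 and 12.2 CPM in chr2-low AML, against 98.6 and 34.9 CPM in the other AML libraries and 45.3 to 137 CPM in Normal libraries. All 3 chr2-low AML libraries were below every Normal library, and the sets of AML libraries did not overlap, although Tet2 het AML 2 was also below the Normal range. The chr2-low mean was 17.3% of the Normal mean, lower than the interval's median level, and the mean of the other AML libraries was 83.0%. Other interval genes with a role in these cells were Bub1, a mitotic checkpoint kinase, at 21.7% of Normal in chr2-low AML and 92.5% in the other AML libraries, Pcna, the sliding clamp of DNA replication, at 32.1% and 80.4%, and Hdc, the histamine-forming enzyme of mast cells and basophils, at 1.36% and 37.2%. Nop56, a ribosome assembly protein, stood at 44.8% and 162.0%. Lmo2, a stem cell cofactor of Tal1, had 63.9% and 91.1%, and there the sets overlapped. Thbs1, a secreted matrix glycoprotein, was at 30.3% and 9.04%, with overlapping sets. No p-value is given for genes inside the interval.

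Counts over genes came to 23.5 to 38.3 M in the AML libraries and 21.1 to 36.7 M in the Normal libraries, so counting error is small for all but the rarest genes. Kit, the receptor used for sorting, was at 170.4, 152 and 135 CPM in chr2-low AML, against 117 and 159 CPM in the other AML libraries and 99.97 to 187 CPM in Normal libraries. Library titles are numbered 1 to 17. Numbers 1 to 7 hold 1 chr2-low AML library (URE het Tet2 het), 1 other AML library (URE het Tet2 KO) and 5 Normal libraries; numbers 8 to 17 hold 2 (URE het Tet2 KO), 1 (URE het Tet2 het) and 7. The labels do not call these ranges a batch. Xist, the RNA of the inactive X, was at 3.28, 2.29 and 2533 CPM in chr2-low AML and at 1395 and 3537 CPM in the other AML libraries, and Y-linked transcripts were at 0.315 CPM or less in all 5, so that 2 chr2-low AML libraries had neither. Their part in the results was not tested beyond a fit without them, which leaves 1 chr2-low AML library.

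The chr2-low AML libraries were also alike at genes that did not choose them. On the first principal component over genes outside the interval (36.7% of the variance) they stood at 85.8, 107.3 and 90.5, the other AML libraries at -0.269 and -5.05, and the Normal libraries between -43.1 and -1.87. The second component (19.3%) separated title numbers 1 to 7 from 8 to 17. The median absolute log2 difference per gene was 0.258 between Tet2 KO AML 2 and 3 and 0.427 and 0.434 between them and Tet2 het AML 1. It was 0.445 to 0.595 between a chr2-low and another AML library, 0.546 between the other 2 AML libraries and 0.197 to 0.461 between Normal libraries. The 0.445 was between Tet2 het AML 1 and Tet2 KO AML 1, which share a range of title numbers.

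**Figure D2:**
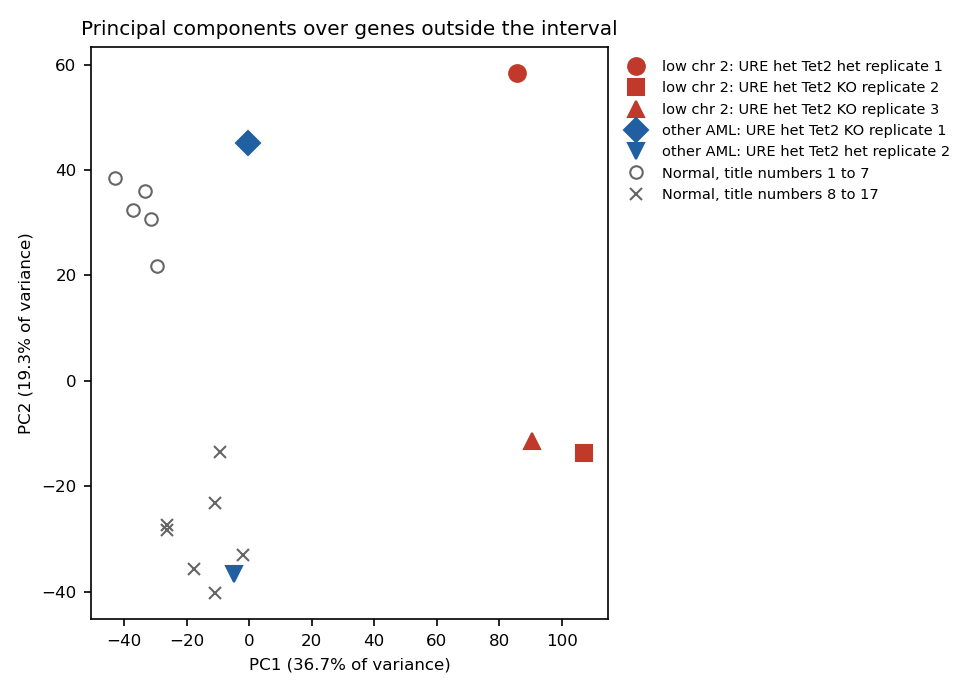
First (horizontal) and second (vertical) principal components of log2 CPM over genes outside the interval, 1 point per library; red is chr2-low AML, blue the other AML libraries, and open circles and crosses are Normal libraries with title numbers 1 to 7 and 8 to 17. Red points lie at 85.8 to 107.3 on the first component and all other points below 0.

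Genes outside the interval were then compared between chr2-low AML and the other AML libraries. Of 19160 genes tested, 2117 passed at an adjusted p of 0.05 (11%), 853 higher (4.45%) and 1264 lower (6.60%) in chr2-low AML, by edgeR's quasi-likelihood test over all 17 libraries; every adjusted p below is from this test unless another setting is named. The median log2 fold change over all tested genes was -0.05. Differences were often large: among the genes that passed, 401 were at least 4-fold higher and 770 at least 4-fold lower, and 93 and 203 were at least 64-fold apart. At 5862 genes (30.6%) the 3 and the 2 libraries did not overlap, and these included 1986 of the 2117. Chromosome 2 outside the interval was near the background, with 80 of 743 genes passing (10.8%). The sets were drawn from these same libraries and hold 3 and 2 libraries, and the count differed between fits: a term for the title number range gave 3603 calls (1604 higher, 1999 lower), DESeq2 2964, limma voom 481, the 5 AML libraries alone 228 (120 higher, 108 lower), the fit without the 2 chr2-low libraries lacking Xist and Y-linked transcripts 618, and the fits without Tet2 het AML 2 or without Tet2 KO AML 2 called 1268 and 1316.

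Within title numbers 1 to 7 the comparison is 1 library against 1, Tet2 het AML 1 against Tet2 KO AML 1, and within 8 to 17 it is Tet2 KO AML 2 and 3 against Tet2 het AML 2 alone. With single libraries on a side, the log2 fold changes within each range are given as a description, with no test. Over the 18063 genes tested in both ranges, 57.2% had the same sign in both. Tal1 was at -6.999 within 1 to 7 and -6.84 within 8 to 17, Cpa3 at -6.49 and -8.30, and Igll1 at 8.54 and 9.25, while Rrm2, a gene of DNA synthesis, was at -1.64 and -0.92. A gene at which the sets do not overlap has the same sign in both ranges by construction. These fits were added after the data were seen.

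Against the Normal libraries, which is a description, it was mostly the chr2-low set, taken as a whole, that stood apart at the genes that passed. Of the 853 higher genes, all 3 chr2-low AML libraries were above every Normal library in 597 (70.0%), and both other AML libraries were below every Normal library in 86 (10.1%). Of the 1264 lower genes, all 3 were below every Normal library in 906 (71.7%), and both others were above in 118 (9.34%). Over all 19160 genes these shares were 8.34% and 2.28% for the first pair and 8.08% and 3.70% for the second. Taken singly, the other AML libraries also left the Normal range at many genes. Genes above every Normal library numbered 4250, 4464 and 4117 in chr2-low AML and 2831 and 3941 in the other AML libraries. Genes below every Normal library numbered 3888, 3979 and 3288, and 2949 and 2900.

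**Figure D3:**
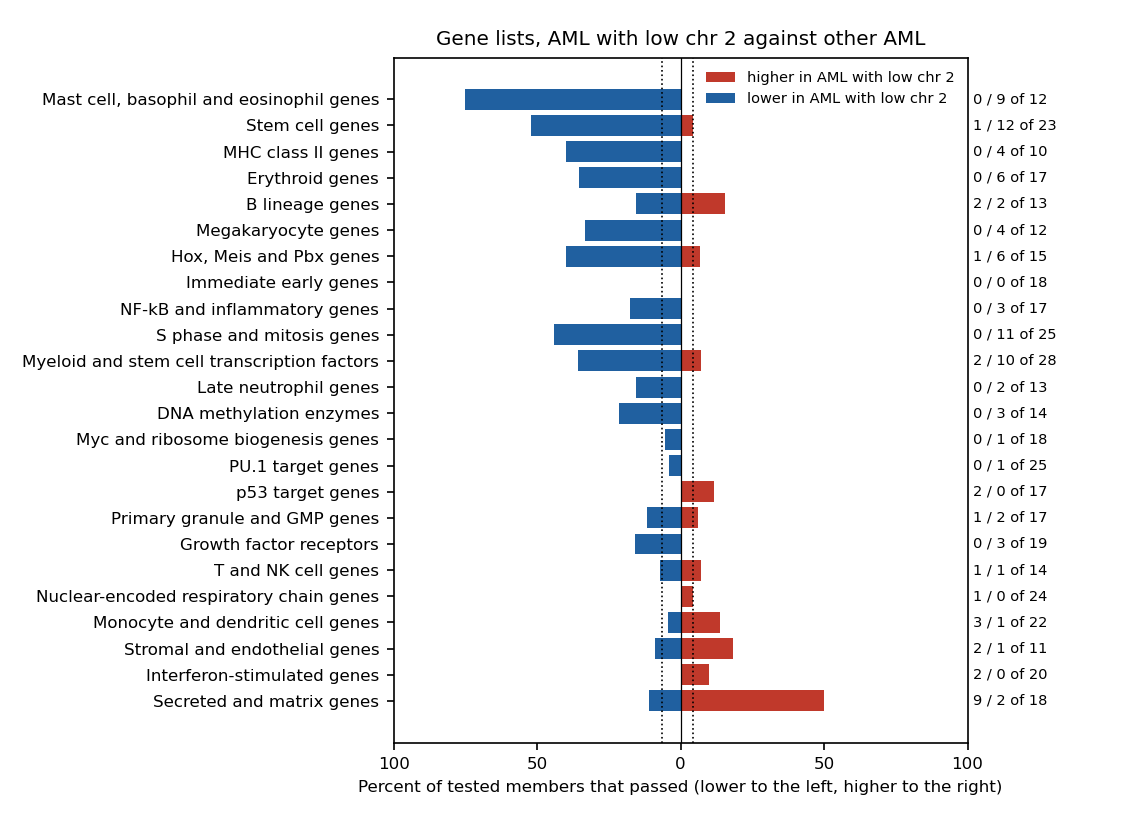
Share of the tested members of 24 gene lists that passed the test (horizontal axis, percent), lower in chr2-low AML to the left in blue and higher to the right in red, with the counts higher / lower of members tested at the right; lists are ordered by their median log2 fold change. Dotted lines give the shares over all genes tested, 6.60% lower and 4.45% higher; mast cell, basophil and eosinophil genes, at 9 of 12 lower, and secreted and matrix genes, at 9 of 18 higher, form the 2 ends.

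Many stem cell genes were lower in chr2-low AML, several of them near 0. Of 23 members tested outside the interval 12 fell and 1 rose, with a median log2 fold change of -3.29; 15 of the 23 lay below every Normal library in all 3 chr2-low AML libraries, and none did in both other AML libraries. Tal1, a transcription factor that founds the blood lineage, was at 0.065, 0.143 and 0.0907 CPM in chr2-low AML, against 8.84 and 13.9 CPM in the other AML libraries and 7.89 to 18.3 CPM in Normal libraries. Its chr2-low libraries were all near 0, and the other AML libraries stood within the Normal range (log2 fold change -6.77 ± 0.45, adjusted p = 6.61e-07). Cd34, a surface sialomucin of stem and progenitor cells, was at 0.065, 0.545 and 0.393 CPM in chr2-low AML, against 10.1 and 73.6 CPM in the other AML libraries and 59.4 to 145 CPM in Normal libraries. Here Tet2 KO AML 1 was itself below the Normal range, and the sets did not overlap (log2 fold change -6.93 ± 0.78, adjusted p = 7.56e-05). Myct1, a gene of stem and endothelial cells, was at 0, 0.0287 and 0.0302 CPM in chr2-low AML, against 1.10 and 6.96 CPM in the other AML libraries and 3.72 to 15.2 CPM in Normal libraries. No other library was as low for Myct1 as the chr2-low libraries were (log2 fold change -7.40 ± 1.01, adjusted p = 0.000305). Tal1, Cd34 and Myct1 passed when any single library was left out. Ly6a was the member that rose, at 16.8, 23.2 and 35.9 CPM in chr2-low AML, against 6.55 and 4.06 CPM in the other AML libraries. Normal libraries had 4.54 to 12.1 CPM of Ly6a (log2 fold change 2.26 ± 0.50, adjusted p = 0.0083). The 5 AML libraries alone, limma voom and the fit without Tet2 het AML 2 did not call Ly6a. Cdkn1c, which did not pass, was also above every Normal library in all 3 chr2-low libraries. Kit did not differ detectably (log2 fold change 0.14 ± 0.24, adjusted p = 0.768). The summed level of the 23 members was 583.5, 547.8 and 478 CPM in chr2-low AML, 546 and 882 CPM in the other AML libraries and 580.2 to 1589 CPM in Normal libraries, so the sums of the sets overlapped. Fewer cells of a type and less RNA per cell cannot be told apart in these bulk libraries. By limma voom 3 of the 23 members were lower rather than 12. The count of 12 was 5 without Tet2 het AML 2, 5 in the 5 AML libraries alone and 8 without the libraries that lack Xist and Y-linked transcripts.

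Several genes of the Hoxa cluster on chromosome 6 were at or near 0 in chr2-low AML. Of the 15 Hox, Meis and Pbx genes tested 6 fell and 1 rose (median -1.05). Hoxa9, a homeobox regulator of self-renewal, was at 0, 0.0573 and 0.0302 CPM in chr2-low AML, against 2.49 and 16.3 CPM in the other AML libraries and 2.97 to 13.1 CPM in Normal libraries. The chr2-low libraries together held 3 Hoxa9 counts and the other AML libraries 828; Tet2 het AML 2 was above the Normal range and Tet2 KO AML 1 below it (log2 fold change -8.11 ± 0.88, adjusted p = 5.44e-05). Hoxa7, its neighbour, was at 0 CPM in all 3 chr2-low AML libraries, against 2.58 and 3.65 CPM in the other AML libraries and 1.21 to 4.73 CPM in Normal libraries. With no count in chr2-low AML the fold is a bound, at least 108-fold lower from 3 counts over the set (adjusted p = 2.95e-05). Hoxa5, Hoxa6 and Hoxa10 were the other Hoxa genes that fell, the last 2 with no count in any chr2-low library (at least 18.6-fold and at least 28.8-fold lower). Meis1, the cofactor of HOXA9, was at 0.13, 0.115 and 0.121 CPM in chr2-low AML, against 2.66 and 35.0 CPM in the other AML libraries and 12.9 to 54.0 CPM in Normal libraries. It was near 0.12 CPM in every chr2-low library, while the other AML libraries differed widely and Tet2 KO AML 1 was below the Normal range (log2 fold change -7.23 ± 0.89, adjusted p = 0.00016). Pbx3, another HOX cofactor, which lies on chromosome 2 outside the interval, went the other way. It was at 16.6, 16.6 and 19.6 CPM in chr2-low AML, against 7.57 and 3.84 CPM in the other AML libraries and 5.24 to 11.6 CPM in Normal libraries, above the Normal range in all 3 chr2-low libraries (log2 fold change 1.63 ± 0.30, adjusted p = 0.00283). Hoxb2 to Hoxb5 did not pass, with Hoxb4 at 4.26, 2.09 and 2.69 CPM in chr2-low AML, against 1.95 and 2.70 CPM in the other AML libraries and 0.923 to 2.73 CPM in Normal libraries. The count of 6 was 3 without Tet2 het AML 2; Hoxa7, Hoxa9 and Meis1 remained in that fit, in the 5 AML libraries alone and in every other alternative run.

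Genes of mast cells, basophils and eosinophils had the lowest median of the 24 lists, -4.36, with 9 of 12 lower and none higher. Cpa3, the mast cell carboxypeptidase, was at 0.195, 0.229 and 0.0605 CPM in chr2-low AML, against 17.8 and 47.5 CPM in the other AML libraries and 31.3 to 128 CPM in Normal libraries. The chr2-low libraries were about 0.2 CPM or lower and did not overlap the others (log2 fold change -7.62 ± 0.55, adjusted p = 1.39e-06). Prss34, a basophil protease, was at 0.0325, 0.086 and 0.0302 CPM in chr2-low AML, against 2.54 and 2.36 CPM in the other AML libraries and 5.02 to 51.3 CPM in Normal libraries; both other AML libraries were also below the Normal range (log2 fold change -5.49 ± 0.82, adjusted p = 0.000563). Fcer1a, a chain of the high-affinity IgE receptor, was at 0.0325, 0 and 0.0605 CPM in chr2-low AML, against 1.99 and 1.34 CPM in the other AML libraries and 2.14 to 19.3 CPM in Normal libraries. The 3 chr2-low libraries were all below every other library for Fcer1a (log2 fold change -5.58 ± 0.85, adjusted p = 0.000675). Il1rl1, the interleukin 33 receptor, was at 0, 0 and 0.0907 CPM in chr2-low AML, against 0.338 and 3.16 CPM in the other AML libraries and 1.497 to 5.85 CPM in Normal libraries. Il1rl1 did not overlap between the sets and was below the Normal range in chr2-low AML (log2 fold change -5.71 ± 0.99, adjusted p = 0.00163), a call lost without Tet2 het AML 2 (adjusted p = 0.0728). Mcpt8, a basophil protease, did not pass, at 17.5, 21.9 and 32.5 CPM in chr2-low AML, against 17.1 and 28.1 CPM in the other AML libraries and 17.8 to 49.9 CPM in Normal libraries. By limma voom 1 member, Cpa3, was lower, and Prss34, Fcer1a and Il1rl1 were not called (adjusted p = 0.239, 0.266 and 0.0952). The summed level of the list was 20.0, 24.1 and 34.4 CPM in chr2-low AML, 47.8 and 111.8 CPM in the other AML libraries and 130.8 to 290.3 CPM in Normal libraries. Its count was 5 without Tet2 het AML 2 and 4 in the 5 AML libraries alone.

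Of the erythroid genes 6 of 17 fell and of the megakaryocyte genes 4 of 12, with none higher in either list (medians -2.25 and -1.30). In the 5 AML libraries alone 1 gene of each list fell, and without Tet2 het AML 1, 9 erythroid genes fell. The erythroid sum was 65.9, 67.6 and 71.9 CPM in chr2-low AML, 169 and 180.2 CPM in the other AML libraries and 129.6 to 289.5 CPM in Normal libraries. The megakaryocyte sum overlapped between the sets, at 499 CPM, 260.1 CPM and 219 CPM in chr2-low AML, 468 and 161 CPM in the other AML libraries and 214 to 442 CPM in Normal libraries. Car2, a carbonic anhydrase of red cell progenitors, was at 0.553, 0.774 and 0.575 CPM in chr2-low AML, against 4.82 and 33.4 CPM in the other AML libraries and 28.8 to 61.5 CPM in Normal libraries. Tet2 KO AML 1 lay between the chr2-low libraries and the Normal range (log2 fold change -4.91 ± 0.59, adjusted p = 0.000146). Gata1, the erythroid and megakaryocyte transcription factor, was at 0 CPM in all 3 chr2-low AML libraries, against 0.296 and 0.743 CPM in the other AML libraries and 0.42 to 1.63 CPM in Normal libraries, at least 19.5-fold lower from 3 counts over the set (adjusted p = 0.000901). Zfpm1, its cofactor, was at 0.0976, 0.115 and 0.242 CPM in chr2-low AML, against 0.93 and 3.67 CPM in the other AML libraries and 1.88 to 5.07 CPM in Normal libraries. Zfpm1 thus lay below every other library in chr2-low AML (log2 fold change -3.91 ± 0.58, adjusted p = 0.00055). Itga2b, the integrin CD41, was at 1.40, 0.287 and 0.454 CPM in chr2-low AML, against 3.21 and 14.8 CPM in the other AML libraries and 4.504 to 11.3 CPM in Normal libraries. No other library was as low for Itga2b as the chr2-low libraries were (log2 fold change -3.67 ± 0.61, adjusted p = 0.00127). Pf4, a platelet chemokine, was at 0 CPM in all 3 chr2-low AML libraries, against 0.254 and 1.76 CPM in the other AML libraries and 0.496 to 2.76 CPM in Normal libraries, at least 41.4-fold lower (adjusted p = 0.00335). Pf4 no longer passed without Tet2 het AML 2 (adjusted p = 0.0545), and the erythroid count was 2 without that library and 3 without Tet2 KO AML 2 or 3. Without Tet2 KO AML 1 or Tet2 het AML 1, 1 megakaryocyte gene was higher.

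MHC class II genes divided the AML libraries in another way. Of 10 members 4 fell (median -2.44), but in 3 of them Tet2 KO AML 1 was as low or nearly so. H2-Aa, a class II chain, was at 0.065, 0 and 0.272 CPM in chr2-low AML, against 0.381 and 10.8 CPM in the other AML libraries and 6.19 to 89.8 CPM in Normal libraries. The chr2-low libraries and Tet2 KO AML 1 were all below the Normal range and only Tet2 het AML 2 was within it (log2 fold change -5.61 ± 1.24, adjusted p = 0.00815). Cd74, the invariant chain, was at 0.52, 0.287 and 0.817 CPM in chr2-low AML, against 0.465 and 12.2 CPM in the other AML libraries and 8.38 to 99.4 CPM in Normal libraries, so that the sets overlapped (log2 fold change -3.56 ± 0.94, adjusted p = 0.0223). Without Tet2 het AML 2 the Cd74 log2 fold change was 0.20 (adjusted p = 0.946), that of H2-Aa had an adjusted p of 0.542, and no member of the list passed; without Tet2 KO AML 1, 7 members passed. H2-Ob and H2-Ab1 were the others that fell, and they too lost their calls without Tet2 het AML 2 (adjusted p = 0.469 and 0.113). The H2 genes share sequence among themselves, so their separate counts are less certain.

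**Figure D4:**
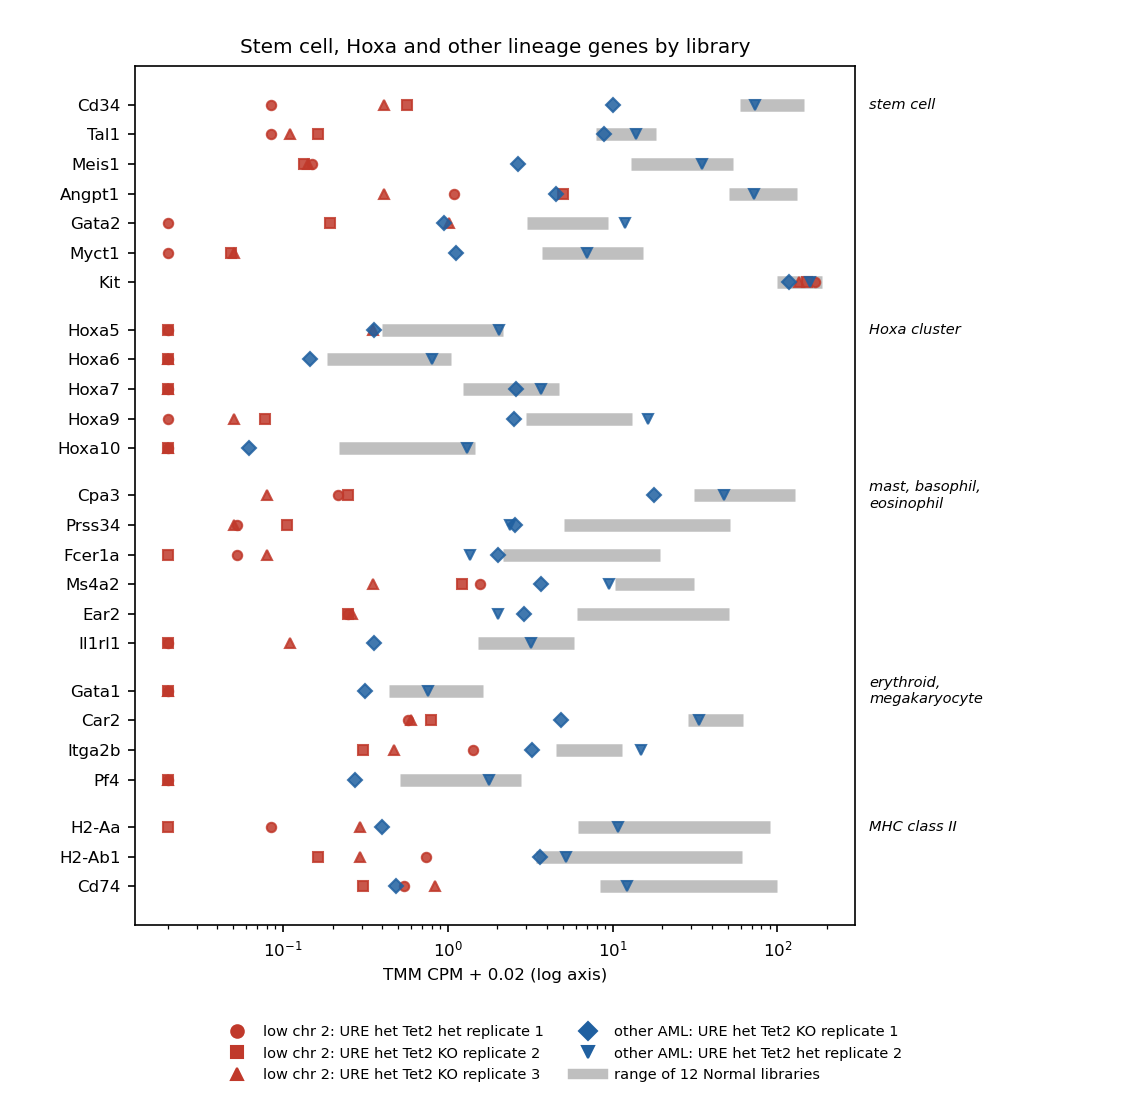
CPM + 0.02 on a log axis for stem cell, Hoxa, mast cell, erythroid, megakaryocyte and MHC class II genes, 1 row per gene; red symbols are the 3 chr2-low AML libraries, blue symbols the other 2 AML libraries and grey bars the range of 12 Normal libraries. In Tal1 the red symbols lie at 0.0650 to 0.143 CPM and the blue ones at 8.84 and 13.9 CPM, while Kit has all symbols within 117 to 170.4 CPM; genes beyond those given by the naming rule were picked after their values were seen.

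Secreted and matrix genes rose in chr2-low AML, 9 of 18 with 2 lower (median 1.57). Thbs4, a thrombospondin of the matrix, was at 993, 577 and 182 CPM in chr2-low AML, against 4.06 and 0.722 CPM in the other AML libraries and 0.0882 to 4.58 CPM in Normal libraries. All 3 chr2-low libraries were far above the Normal range and Tet2 KO AML 1 was near its top (log2 fold change 7.98 ± 1.16, adjusted p = 0.000488). Lamb1, a laminin chain, was at 12.5, 87.3 and 73.8 CPM in chr2-low AML, against 0.381 and 0.255 CPM in the other AML libraries and 0.0733 to 0.635 CPM in Normal libraries, with both other AML libraries within the Normal range (log2 fold change 7.53 ± 0.96, adjusted p = 0.000202). F13a1, a clotting factor subunit made by monocytes, was at 1266, 2392 and 1372 CPM in chr2-low AML, against 335 and 172 CPM in the other AML libraries and 94.8 to 306 CPM in Normal libraries. The 3 chr2-low libraries were all above every other library for F13a1 (log2 fold change 2.73 ± 0.51, adjusted p = 0.00291). Fn1, fibronectin, was at 608, 2829 and 1234 CPM in chr2-low AML, against 52.7 and 9.72 CPM in the other AML libraries and 15.4 to 141 CPM in Normal libraries. Fn1 did not overlap between the sets and was above the Normal range in chr2-low AML (log2 fold change 5.64 ± 1.16, adjusted p = 0.0053), a call lost without Tet2 het AML 2 (adjusted p = 0.0586). Tgfbi, an adhesion protein induced by TGF beta, went down instead. It was at 0.325, 0.201 and 0.544 CPM in chr2-low AML, against 90.2 and 15.1 CPM in the other AML libraries and 16.8 to 57.8 CPM in Normal libraries, with all 3 chr2-low libraries below 1 CPM and below every other library (log2 fold change -7.19 ± 0.71, adjusted p = 2.95e-05). Svep1, Lamc1, Vcan, Spp1 and Mmp2 also rose and Adamts1 also fell. The summed level of the list was 3300, 6584 and 3131 CPM in chr2-low AML, 588 and 231 CPM in the other AML libraries and 166 to 387 CPM in Normal libraries. The count of 9 was 3 without Tet2 het AML 2 and 3 in the 5 AML libraries alone. Of 11 stromal and endothelial genes tested, Vcam1 and Lepr rose and Emcn fell. None of the 3 was called without Tet2 het AML 2 (adjusted p = 0.162, 0.231 and 0.277), nor Lepr without Tet2 KO AML 1 (0.0795), Tet2 KO AML 2 (0.247), or Normal replicate 2 of Tet2 KO (0.0529) or of URE het (0.0523). Col3a1, Dcn, Lum and 4 other markers of that list had too few counts to test; the summed level of the 18 members was 371.8, 396 and 378 CPM in chr2-low AML, 154 and 189 CPM in the other AML libraries and 140.5 to 237 CPM in Normal libraries. Vcam1, the adhesion receptor, gave 232, 163 and 171 CPM of this in chr2-low AML. Their part in the matrix result was not tested.

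Myeloid genes moved in both directions. Of the 28 myeloid and stem cell transcription factors outside the interval 2 rose and 10 fell (median -0.76). In the 5 AML libraries alone 0 rose and 1 fell. Cebpa, the factor that starts granulocyte formation, was at 110.2, 102.5 and 70.5 CPM in chr2-low AML, against 29.2 and 13.4 CPM in the other AML libraries and 12.1 to 32.6 CPM in Normal libraries. All chr2-low libraries were above every Normal library, and the other AML libraries were within the Normal range (log2 fold change 2.15 ± 0.44, adjusted p = 0.0052). The Cebpa call was lost without Tet2 het AML 2 (adjusted p = 0.0716). Runx1, a core factor of blood formation, was at 265, 362 and 205 CPM in chr2-low AML, against 87.3 and 136 CPM in the other AML libraries and 135 to 178 CPM in Normal libraries, with 1 of the other AML libraries below the Normal range (log2 fold change 1.31 ± 0.26, adjusted p = 0.00408). Ly6c2, a surface antigen of monocytes and their progenitors, was at 1187, 2208 and 2166 CPM in chr2-low AML, against 421 and 392.3 CPM in the other AML libraries and 276 to 1063 CPM in Normal libraries. Ly6c2 thus lay above every other library in chr2-low AML (log2 fold change 2.19 ± 0.43, adjusted p = 0.00393), and its reads may be shared with related Ly6 genes. The rises in F13a1, Fn1 and Ly6c2 were the 3 among 22 monocyte and dendritic cell genes, against 1 fall, Siglech, a marker of plasmacytoid dendritic cells. Without Tet2 het AML 2, 5 rose and none fell, the Siglech call being lost (adjusted p = 0.192). Without Tet2 KO AML 1, 3 fell, and without Tet2 het AML 1, 2 fell. The summed level of the 22 members was 7469, 10280 and 9407 CPM in chr2-low AML, within the Normal range of 5134 to 14390 CPM. In the other AML libraries it was 2509 and 2563 CPM, below every Normal library. Members below every Normal library numbered 4 in both other AML libraries and 4 in all 3 chr2-low libraries, where 3 were above. Irf8, which directs monocyte and dendritic cell fate, was at 32.4, 68.0 and 101 CPM in chr2-low AML, against 4.61 and 41.6 CPM in the other AML libraries and 19.9 to 44.1 CPM in Normal libraries, and did not pass (adjusted p = 0.136). The transcription factors that fell included Meis1, Gata1, Zfpm1 and Mycn, and the count of 10 was 5 without Tet2 het AML 2 and 6 without Tet2 KO AML 2. Mycn, a Myc family member of stem cells, was at 0.0325, 0.086 and 0.0302 CPM in chr2-low AML, against 0 and 9.36 CPM in the other AML libraries and 1.82 to 8.04 CPM in Normal libraries; its fall (log2 fold change -6.45 ± 1.42, adjusted p = 0.00813) rested on Tet2 het AML 2, without which the log2 fold change was 3.73 (adjusted p = 0.513). Myc itself was at 143, 226 and 189.9 CPM in chr2-low AML, against 116 and 223 CPM in the other AML libraries and 76.2 to 180.3 CPM in Normal libraries, and did not pass.

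Most of the granule genes that passed fell, while several that did not pass were above the Normal range in all chr2-low libraries. Mpo, the main enzyme of primary granules, was at 5279, 6805 and 6103 CPM in chr2-low AML, against 7738 and 4443 CPM in the other AML libraries and 2236 to 6543 CPM in Normal libraries (log2 fold change -0.01 ± 0.43, adjusted p = 0.995). Among 17 primary granule and progenitor genes 1 rose, Cebpa, and 2 fell (median -0.01), with 2 higher without Tet2 KO AML 1, Tet2 het AML 1 or Tet2 het replicate 2 of the Normal libraries. All 3 chr2-low libraries were above every Normal library at 5 of the 17 and below at 2. Elane was at 1204, 1701 and 1953 CPM in chr2-low AML, against 719.9 and 440.6 CPM in the other AML libraries. Normal libraries had 192.8 to 911.6 CPM of Elane, and it did not pass (log2 fold change 1.48 ± 0.52, adjusted p = 0.0801). Nkg7, a granule membrane protein, was at 17.04, 18.4 and 21.8 CPM in chr2-low AML, against 91.5 and 80.2 CPM in the other AML libraries and 54.2 to 145 CPM in Normal libraries, with chr2-low AML below every other library (log2 fold change -2.17 ± 0.29, adjusted p = 0.000249). Fcnb, the lectin ficolin B, was at 16.4, 2.29 and 12.9 CPM in chr2-low AML, against 201 and 84.6 CPM in the other AML libraries and 98.8 to 375 CPM in Normal libraries. No other library was as low for Fcnb as the chr2-low libraries were (log2 fold change -3.76 ± 0.61, adjusted p = 0.00112). Ltf, the lactoferrin of secondary granules, was at 259, 25.5 and 101.7 CPM in chr2-low AML, against 1202 and 623 CPM in the other AML libraries and 1083 to 5056 CPM in Normal libraries. The 3 chr2-low libraries were all below every other library for Ltf (log2 fold change -2.83 ± 0.74, adjusted p = 0.0214) and was lost without Tet2 KO AML 1 (adjusted p = 0.11), Tet2 KO AML 2 (0.0538) or Tet2 KO AML 3 (0.0687). S100a9, an antimicrobial protein of neutrophils, passed narrowly (adjusted p = 0.0458) and held in 8 of 31 alternatives. These 2 were the calls among 13 late neutrophil genes (median -0.32), and 0 passed without Tet2 KO AML 1 or Tet2 KO AML 2.

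Lymphoid-type genes passed in both directions. Igll1, the lambda 5 surrogate light chain of pre-B cells, was at 96.9, 241 and 124 CPM in chr2-low AML, against 0.254 and 0.297 CPM in the other AML libraries and 0 to 0.764 CPM in Normal libraries. All 3 chr2-low libraries stood far above every other library (log2 fold change 9.09 ± 0.87, adjusted p = 2.44e-05). Its partner Vpreb1 was at 1.17, 2.24 and 0.514 CPM in chr2-low AML, against 0.0423 and 0.191 CPM in the other AML libraries and 0 to 0.404 CPM in Normal libraries, and passed narrowly (adjusted p = 0.0426), a call that held in 11 of 31 alternatives. Cd79b, a signalling chain of the B cell receptor, was at 0.065, 0.086 and 0.605 CPM in chr2-low AML, against 6.30 and 7.18 CPM in the other AML libraries and 5.13 to 11.2 CPM in Normal libraries. Cd79b did not overlap between the sets and was below the Normal range in chr2-low AML (log2 fold change -4.72 ± 0.58, adjusted p = 0.00016). Dntt, the terminal transferase of early lymphoid progenitors, was at 0, 0.0573 and 0.0907 CPM in chr2-low AML, against 0.296 and 26.9 CPM in the other AML libraries and 6.16 to 43.7 CPM in Normal libraries. Dntt thus lay below every other library in chr2-low AML (log2 fold change -7.98 ± 1.31, adjusted p = 0.0012); it did not pass without Tet2 het AML 2 (adjusted p = 0.202). Of 13 B lineage genes 2 rose and 2 fell (median -1.73), with 5 lower without Tet2 KO AML 1, and the B cell markers Pax5 and Ms4a1 were at 0.0325 CPM or less in every AML library. Thy1, a glycoprotein on the surface of T cells, was at 5.43, 49.7 and 36.2 CPM in chr2-low AML, against 0.972 and 0.722 CPM in the other AML libraries and 0.491 to 2.52 CPM in Normal libraries. No other library was as high for Thy1 as the chr2-low libraries were (log2 fold change 5.17 ± 0.77, adjusted p = 0.000566). It was the 1 gene to rise among 14 T and NK cell genes, where Gata3 was the 1 to fall, with overlapping sets. The Gata3 call was lost without Tet2 het AML 2 (adjusted p = 0.769), Tet2 KO AML 2 (0.0812) or Tet2 het AML 1 (0.0553). Without Tet2 KO AML 2 or 3, 2 rose, and without Tet2 KO AML 1 or 3, 3 fell. Cd3e, a chain of the T cell receptor complex, was at 0, 0 and 2.93 CPM in chr2-low AML, against 0 and 0.149 CPM in the other AML libraries and 0 to 0.985 CPM in Normal libraries.

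The largest rises by the naming rule were genes with little RNA in the other AML and Normal libraries. Minar1 was at 63.5, 137 and 55.6 CPM in chr2-low AML, against 0.0846 and 0.0425 CPM in the other AML libraries and 0 to 0.269 CPM in Normal libraries. Its chr2-low libraries stood far above all others (log2 fold change 10.44 ± 0.99, adjusted p = 2.14e-05). Six4, a homeobox factor known from muscle development, was at 7.51, 22.6 and 16.8 CPM in chr2-low AML, against 0 CPM in both other AML libraries and 0 to 0.0733 CPM in Normal libraries, at least 376-fold higher from 3 counts over the set (adjusted p = 0.000206). Lhfp was at 36.5, 40.1 and 35.3 CPM in chr2-low AML, against 0.0423 and 0.0849 CPM in the other AML libraries and 0 to 0.382 CPM in Normal libraries. The 3 chr2-low libraries were all above every other library for Lhfp (log2 fold change 8.998 ± 0.94, adjusted p = 3.7e-05). Lrrn2 was at 5.56, 12.01 and 7.08 CPM in chr2-low AML, against 0 and 0.0212 CPM in the other AML libraries and 0 to 0.0733 CPM in Normal libraries. Lrrn2 did not overlap between the sets and was above the Normal range in chr2-low AML (log2 fold change 8.86 ± 1.21, adjusted p = 0.000474). Csn2, the milk protein beta-casein, was at 11.5, 61.5 and 0.333 CPM in chr2-low AML, against 0 CPM in both other AML libraries and 0 to 0.0592 CPM in Normal libraries, at least 599.8-fold higher (adjusted p = 0.00754), with the chr2-low libraries far apart from each other. Pmp22, a myelin protein, Col6a4, a collagen VI chain, Lox, which cross-links collagen, Bhlhe41, a circadian repressor, and Kcnn3, a potassium channel, had log2 fold changes of 10.70, 9.81, 10.13, 9.05 and 8.90. Of these genes the other AML libraries together held 1, 1, 3, 2 and 1 counts, so the folds rest on few counts. Col6a4 in Tet2 KO AML 3, at 1.75 CPM, was within the Normal range, which reached 2.64 CPM. By limma voom none of these genes passed (adjusted p = 0.479, 0.389, 0.561, 0.353 and 0.239). Umodl1, at least 198-fold higher, and Igll1 made up the 12. Csn2, Bhlhe41 and Col6a4 lost their calls without Tet2 het AML 2 (adjusted p = 0.0674, 0.0595 and 0.154), and Col6a4 also without Tet2 KO AML 1 (0.0743).

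**Figure D5:**
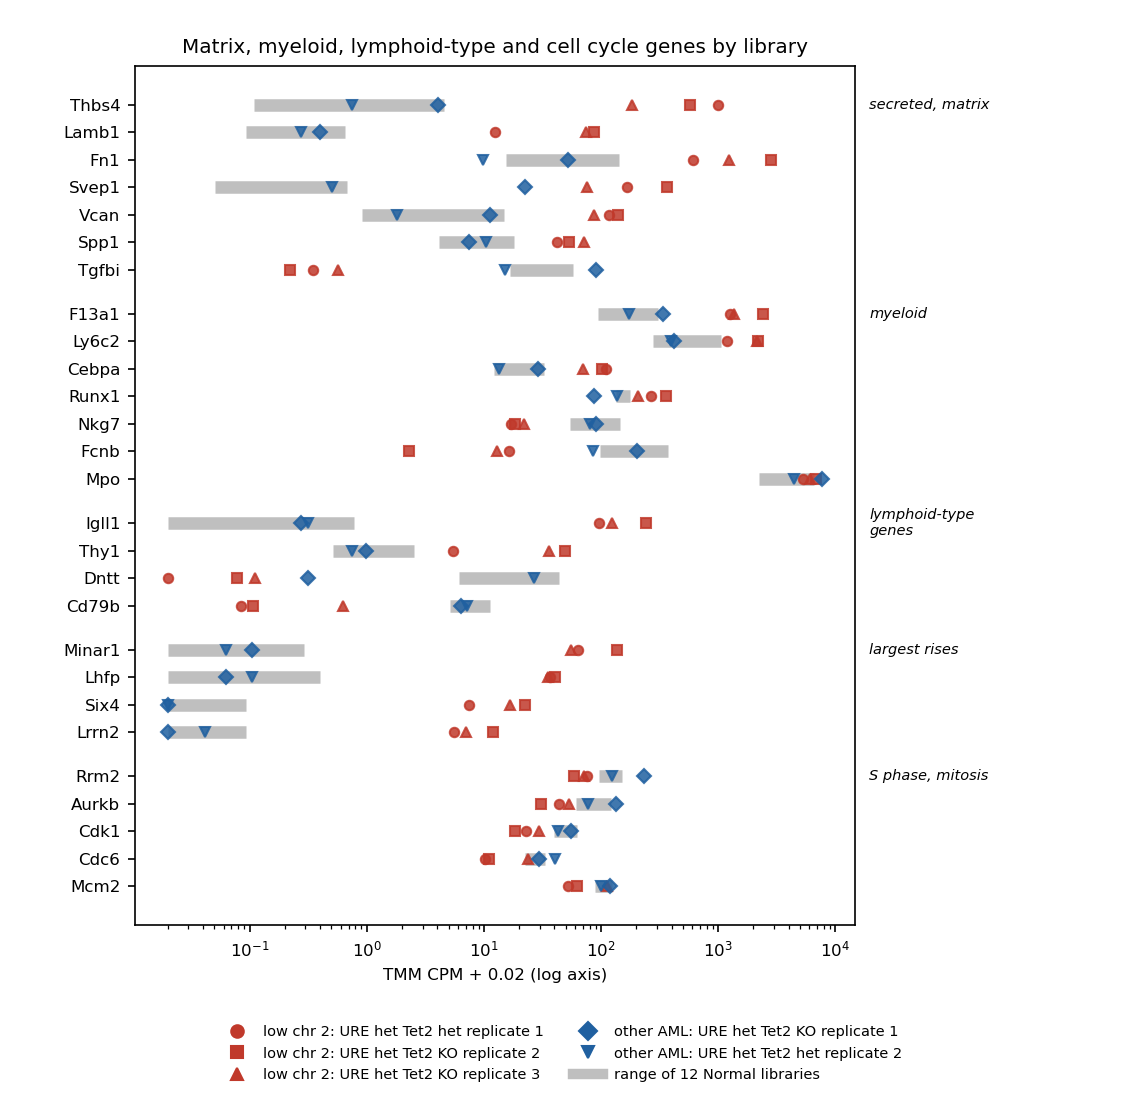
CPM + 0.02 on a log axis for matrix, myeloid, lymphoid-type, strongly higher and cell cycle genes, 1 row per gene; red symbols are the 3 chr2-low AML libraries, blue symbols the other 2 AML libraries and grey bars the range of 12 Normal libraries. Igll1 has the red symbols at 96.9 to 241 CPM and the blue ones at 0.254 and 0.297 CPM, whereas for Mpo all 5 lie within 4443 to 7738 CPM; genes beyond those given by the naming rule were picked after their values were seen.

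The 12 largest falls included receptors and secreted proteins. Siglecg, an inhibitory receptor for sialic acid, was at 0.065, 0.258 and 0.181 CPM in chr2-low AML, against 8.12 and 69.5 CPM in the other AML libraries and 16.6 to 39.6 CPM in Normal libraries. The chr2-low libraries were near 0, below every other library (log2 fold change -7.80 ± 0.73, adjusted p = 2.1e-05). Siglece, its relative on neutrophils, was at 0.13, 0.0287 and 0.0605 CPM in chr2-low AML, against 48.5 and 7.495 CPM in the other AML libraries and 12.5 to 58.7 CPM in Normal libraries. Siglece thus lay below every other library in chr2-low AML (log2 fold change -8.53 ± 0.93, adjusted p = 6.02e-05). Gpc1, a heparan sulphate proteoglycan, was at 0, 0.287 and 0.938 CPM in chr2-low AML, against 88.7 and 35.2 CPM in the other AML libraries and 25.2 to 61.4 CPM in Normal libraries. No other library was as low for Gpc1 as the chr2-low libraries were (log2 fold change -7.22 ± 0.75, adjusted p = 4.22e-05). The nuclear proteins Aff3 and Bahcc1 had log2 fold changes of -6.83 and -6.76, and Ebi3, a cytokine subunit, -6.38; each of these 6 passed in all 31 alternatives. Cd34, Cpa3 and Tgfbi were among the 12. Stfa2l1, a protease inhibitor, Chil4, a chitinase-like protein, and Rgs1, a regulator of G proteins, fell by 8.48, 6.87 and 6.31 on the log2 scale. Stfa2l1 was lost without Tet2 KO AML 1 (adjusted p = 0.111) and Rgs1 without Tet2 het AML 2 (0.0693). Siglec, Stfa and Chil genes have close relatives, which makes their counts less certain.

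S phase and mitosis genes were modestly lower, 11 of 25 outside the interval with none higher (median -0.93). Rrm2, a subunit of ribonucleotide reductase, was at 75.3, 59.1 and 71.7 CPM in chr2-low AML, against 233 and 123 CPM in the other AML libraries and 95.2 to 150.5 CPM in Normal libraries. All 3 chr2-low libraries were below the Normal range, and Tet2 KO AML 1 was above it (log2 fold change -1.38 ± 0.26, adjusted p = 0.0034). Aurka, a mitotic kinase on chromosome 2 beyond the interval, was at 11.9, 12.9 and 15.1 CPM in chr2-low AML, against 40.6 and 28.2 CPM in the other AML libraries and 26.5 to 41.8 CPM in Normal libraries. The 3 chr2-low libraries were all below every other library for Aurka (log2 fold change -1.37 ± 0.24, adjusted p = 0.00185). Cdk1, the kinase that drives mitosis, was at 22.9, 18.6 and 29.6 CPM in chr2-low AML, against 55.6 and 42.6 CPM in the other AML libraries and 39.5 to 62.0 CPM in Normal libraries. Cdk1 did not overlap between the sets and was below the Normal range in chr2-low AML (log2 fold change -1.05 ± 0.23, adjusted p = 0.00779). The Aurkb, Cdk1 and Rrm2 calls were lost without Tet2 KO AML 1 (adjusted p = 0.141, 0.0794 and 0.0699), and those of Aurkb and Cdk1 without Tet2 KO AML 2 (0.0582 and 0.0514). The count of 11 was 2 without either of these libraries, 6 without Tet2 het AML 1, 7 without any of Tet2 KO replicate 2, Tet2 het replicate 3, URE het replicate 2 and WT replicates 1 and 2, and 0 in the 5 AML libraries alone.

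PU.1 target genes held few calls. Of 25 members 1 fell and 0 rose, with a median of -0.05; without Tet2 KO AML 1, 3 fell and 3 rose, without Tet2 het AML 2, 3 rose, and without Tet2 het AML 1, 2 fell. Csf1r, the receptor for macrophage colony-stimulating factor, was at 32.6, 57.0 and 73.8 CPM in chr2-low AML, against 10.9 and 45.3 CPM in the other AML libraries and 25.6 to 55.5 CPM in Normal libraries (adjusted p = 0.239). Csf3r, the granulocyte counterpart, was at 443, 236 and 261 CPM in chr2-low AML, against 187 and 202 CPM in the other AML libraries and 124 to 262 CPM in Normal libraries (adjusted p = 0.221). The sets overlapped for Csf1r and did not for Csf3r. Ncf4, a subunit of the NADPH oxidase, was at 61.3, 32.5 and 29.4 CPM in chr2-low AML, against 159 and 69.2 CPM in the other AML libraries and 42.6 to 115 CPM in Normal libraries. Ncf4 was lower in each chr2-low library than in either other AML library (log2 fold change -1.48 ± 0.40, adjusted p = 0.0253); its call was lost without Tet2 KO AML 1 (adjusted p = 0.343), Tet2 KO AML 2 (0.106) or Tet2 KO AML 3 (0.0915). Among 19 growth factor receptors 3 fell, Tek and Il5ra among them, at a median of 0.09 for the list. Without Tet2 KO AML 1, 2 rose; without Tet2 het AML 2, 1 rose and 2 fell, the Tek call being lost (adjusted p = 0.184).

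Tet2 was not distinguished between the sets. It was at 234, 113 and 176 CPM in chr2-low AML, against 112 and 156 CPM in the other AML libraries and 80.2 to 176 CPM in Normal libraries. The library that was high was Tet2 het, and the sets overlapped (log2 fold change 0.38 ± 0.27, adjusted p = 0.416). A count per gene does not check the Tet2 allele. Of 14 DNA methylation enzymes 3 fell and none rose (median -0.31), with 1 lower without Tet2 KO AML 2 and 0 without Tet2 het AML 2. Tet1, a relative of Tet2, was at 2.60, 11.2 and 10.2 CPM in chr2-low AML, against 21.3 and 32.1 CPM in the other AML libraries and 23.6 to 72.0 CPM in Normal libraries. Tet1 thus lay below every other library in chr2-low AML (log2 fold change -1.74 ± 0.42, adjusted p = 0.0143). Uhrf1, which guides methylation of newly made DNA, was at 31.2, 28.3 and 51.9 CPM in chr2-low AML, against 75.4 and 84.7 CPM in the other AML libraries and 55.0 to 81.7 CPM in Normal libraries. No other library was as low for Uhrf1 as the chr2-low libraries were (log2 fold change -1.11 ± 0.25, adjusted p = 0.00942). Neither passed without Tet2 het AML 2 (adjusted p = 0.117 and 0.0546), nor Uhrf1 without Tet2 KO AML 2 (0.0517). Idh2, a mitochondrial dehydrogenase, passed narrowly (adjusted p = 0.0428) and held in 12 of 31 alternatives.

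Calls in the stress and inflammatory lists were small in number, but the lists are short. Over all genes tested 4.45% rose and 6.60% fell. The p53 and interferon rises and the NF-kB falls given below were not under these shares. Ccng1, the cyclin G1 gene that p53 induces, was at 246, 227 and 139.7 CPM in chr2-low AML, against 71.4 and 38.1 CPM in the other AML libraries and 68.5 to 115 CPM in Normal libraries, higher in every chr2-low library than in any other (log2 fold change 1.90 ± 0.30, adjusted p = 0.000882). With Zmat3 it made 2 of 17 p53 targets that rose (median -0.03); Zmat3 was lost without Tet2 het AML 2 (adjusted p = 0.136) or Tet2 KO AML 2 (0.0686). Gbp3, a GTPase induced by interferon, was at 48.1, 63.3 and 82.4 CPM in chr2-low AML, against 13.7 and 23.8 CPM in the other AML libraries and 17.6 to 33.9 CPM in Normal libraries. The 3 chr2-low libraries were all above every other library for Gbp3 (log2 fold change 1.78 ± 0.34, adjusted p = 0.00347), and with Gbp2 made 2 of 20 interferon-stimulated genes that rose (median 0.68); Gbp2 held in 10 of 31 alternatives. Icam1, an adhesion receptor, was at 0.228, 0.975 and 0.454 CPM in chr2-low AML, against 3.51 and 6.22 CPM in the other AML libraries and 3.41 to 6.73 CPM in Normal libraries. Icam1 did not overlap between the sets and was below the Normal range in chr2-low AML (log2 fold change -3.13 ± 0.45, adjusted p = 0.000422) and was 1 of 3 that fell among 17 NF-kB and inflammatory genes (median -0.93). Il6 and Ccl2, secreted signals of inflammation, were the others, and both lost their calls without Tet2 het AML 2 (adjusted p = 0.605 and 0.389). None of 18 immediate early genes passed by edgeR, limma voom or DESeq2, and 2 had an unadjusted p below 0.05 in edgeR (median -0.98); with a term for the title number range in edgeR, 3 were lower. Of 18 Myc and ribosome biogenesis genes Mycn alone fell (median -0.28), with 3 lower without Tet2 KO AML 1. Of 24 nuclear-encoded respiratory chain genes 1 rose (median 0.33), Ndufb3, a subunit of complex I, with 2 higher without Tet2 het AML 1. Its call was lost without Tet2 KO AML 1 (adjusted p = 0.0633), Tet2 KO AML 2 (0.0814), Tet2 KO AML 3 (0.0769) or Tet2 het AML 2 (0.163).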

How the data were processed

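Polyadenylated RNA of 17 libraries was sequenced, and the authors deposited a table of raw counts per gene and per enhancer; reads were aligned with STAR to GRCm38, per the submitters' processing notes. The counting tool, its strand setting and versions are not given in the sources used here, so overlapping and antisense genes are less certain. Enhancer rows were not used. Gene names and coordinates came from GENCODE vM21, matched for 47224 of 47643 gene rows.

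Genes kept by filterByExpr (minimum count 10, total 15; 19951 genes) were scaled by TMM and fitted with edgeR 4.0.16 (robust quasi-likelihood F test, R 4.3.3) over 6 sets: chr2-low AML, other AML and the 4 Normal genotypes, with Benjamini-Hochberg adjustment over all genes and a threshold of 0.05. Standard errors are the log2 fold change divided by the square root of F. Where a set had no count, the fold is a bound from 3 counts over the set. In simulated counts of the same design over 19951 genes the test recovered 6% of genes changed 2-fold and 61% of those changed 4-fold. There were 3 false calls among 70. The simulation gave AML and Normal libraries the same spread at each gene. It therefore cannot give the false calls under a larger spread among AML libraries. Alternatives used DESeq2 1.42.0, limma 3.58.1 voom, other scalings, filters and library sets.

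Members and gene lists were chosen with earlier results of these data known. Named genes were Tet2, the 12 largest rises and falls among protein-coding genes without overlap whose average log2 CPM in AML reached 1, up to 4 members of each list by smallest p, and 6 genes on opposite sides of Normal; predicted, immunoglobulin, T cell receptor, Y-linked and pseudogenes and Xist were left out, and any other gene was chosen after its values were seen. Some members of the rule and lists are not reported here.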

Additional observations from a re-analysis of the deposited data

Results flagged for a closer look

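At 31 of the protein-coding genes open to naming, which leaves out predicted and immunoglobulin genes, the chr2-low AML libraries lay on 1 side of all 12 Normal libraries and the other AML libraries on the opposite side, 18 with chr2-low AML above and 13 with it below. Over all 19160 genes tested outside the interval there were 21 with chr2-low AML above and 18 with it below. All 31 were among the 2117 calls, and the 6 with the largest fold are given here; what sets the 2 sides was not tested. Because sides were read from the same libraries as the calls, their number carries no test of its own.

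Dcaf12l1 was at 2.57, 5.39 and 2.27 CPM in chr2-low AML, against 0.0846 and 0.0849 CPM in the other AML libraries and 0.0866 to 0.659 CPM in Normal libraries, a log2 fold change of 5.266 by edgeR (adjusted p = 0.00141). B3galnt1, a glycosyltransferase, was at 2.02, 4.19 and 5.68 CPM in chr2-low AML, against 0.0423 and 0.149 CPM in the other AML libraries and 0.153 to 0.908 CPM in Normal libraries (log2 fold change 5.191, adjusted p = 0.00137). Both were low genes, with 6 and 8 counts over the other AML libraries together. Their place below the Normal range there rests on few counts. Nt5e, the surface enzyme CD73 that forms adenosine, was at 46.8, 29.9 and 60.6 CPM in chr2-low AML, against 1.23 and 2.95 CPM in the other AML libraries and 3.56 to 26.8 CPM in Normal libraries (log2 fold change 4.428, adjusted p = 0.00504). Slc44a1, a choline transporter, was at 54.7, 72.0 and 70.8 CPM in chr2-low AML, against 7.70 and 5.31 CPM in the other AML libraries and 8.81 to 17.8 CPM in Normal libraries (log2 fold change 3.343, adjusted p = 2.95e-05), and Trf, the iron carrier transferrin, at 19.7, 23.5 and 18.7 CPM in chr2-low AML, against 3.81 and 3.29 CPM in the other AML libraries and 5.21 to 13.7 CPM in Normal libraries (log2 fold change 2.54, adjusted p = 0.000222). Slc44a1 and Trf passed in all 31 alternatives. Zan, zonadhesin, was the reverse case, at 0.065, 0 and 0.121 CPM in chr2-low AML, against 1.35 and 3.21 CPM in the other AML libraries and 0.305 to 1.14 CPM in Normal libraries (log2 fold change -5.138, adjusted p = 0.000688).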

How the results depend on the processing

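Against the 2117 calls, DESeq2 made 2964 (1370 higher), limma voom 481 (199 higher, 282 lower), the 5 AML libraries alone 228 (120 and 108) and a term for the title number range 3603 (1604 and 1999). Fits added after the data were seen gave 618 (316 and 302) without the libraries lacking Xist and Y-linked transcripts and 4548 (2036 and 2512) within title numbers 8 to 17, where Tet2 het AML 2 is the only other AML library and is assumed to vary like the other sets. Leaving out 1 library at a time gave 1268 to 2375 calls, 540 to 905 higher and 728 to 1470 lower, the fewest without Tet2 het AML 2 and the most without Tet2 KO AML 1; without Tet2 KO AML 2 there were 550 higher and 766 lower. Higher genes were 40.3% of the calls, 52.6% in the 5 AML libraries alone. Of the 91 genes of the naming rule that passed, 24 passed in every alternative and 35 in the 5 AML libraries alone. The cause of these changes was not tested.

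Log2 fold changes that turned positive were those of Cd74 (0.196 without Tet2 het AML 2, against -4.43 without Tet2 KO AML 1; 0.150 within title numbers 1 to 7; 0.225 with Tet2 KO as the only AML genotype), Mycn (3.73, against -7.38; 3.02; 3.94 in the same settings) and Gfi1b (0.187 within 1 to 7). The interval medians moved with library totals in place of TMM to -0.895, -1.087 and -1.178 in chr2-low AML and 0.139 in Tet2 het AML 2. With genes of at least 30 CPM they were -0.896, -1.073 and -1.113 in chr2-low AML and 0.145 and -0.353 in the other AML libraries. The same 3 libraries were below -0.6 in both.

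No paired analysis was possible because the replicate numbers were given in accession order and pair no libraries; the term for the title number range is the nearest to a block. Depth limits rare genes: at 0 counts in a set a fold is a bound.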

Other observations

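Summed levels are given for 3 gene lists picked after their values were seen, with no test. Interferon-stimulated genes summed to 529.9, 332 and 234 CPM in chr2-low AML, 194 and 278 CPM in the other AML libraries and 167 to 441 CPM in Normal libraries. Tet2 het AML 1 was above the Normal range, and Tet2 KO AML 1 had the lowest sum of the 5 AML libraries.

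Nuclear-encoded respiratory chain genes, which build the mitochondrial electron transport complexes, summed to 1795, 2415 and 2146 CPM in chr2-low AML, 2402 and 1225 CPM in the other AML libraries and 1603 to 2164 CPM in Normal libraries. Immediate early genes, the first transcription factors induced by signals, summed to 1363, 542 and 925 CPM in chr2-low AML, 1166 and 2621 CPM in the other AML libraries and 359 to 5676 CPM in Normal libraries. For both lists Tet2 KO AML 1 lay among or near the chr2-low libraries and Tet2 het AML 2 lay outside them.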
